A study of Mus musculus with 12 samples.

Results

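Genes for 8 amino acid transporters of the plasma membrane were followed through total RNA and ribosome footprints of a mouse melanoma cell line with and without a knockdown of Elp3. They are the rows of the count table whose symbol is Slc7a5, Slc3a2, Slc7a1, Slc1a5, Slc1a4, Slc38a1, Slc38a2 or Slc6a9, 8 of the 24421 genes in the table, and all 8 passed the filter on low counts in both kinds of library. The cells were B16, a pigmented mouse melanoma line, transduced with lentivirus that expressed either a non-relevant shRNA (shControl) or 1 Elp3-specific shRNA, sh309 (shELP3). Both groups grew in DMEM with serum, penicillin-streptomycin and added glutamine, so extra glutamine was present in every culture. Each shRNA had 3 replicates lettered A, B and C. Each replicate had 1 library of total RNA and 1 of ribosome-protected fragments (RPF, or footprints), the pieces of mRNA that a ribosome shields from nuclease. Libraries with the same shRNA and letter were taken as 1 culture, which the sample titles do not state. This makes 4 groups of 3 libraries and 12 libraries in all. Only 1 shRNA against Elp3 was used and nothing says that the cultures were separate transductions, so a p-value here reflects no more than how these cultures varied, which may be technical.

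Amino acids cross the plasma membrane through carriers that differ in substrate and in coupling. Slc7a5 (LAT1) exchanges large neutral amino acids such as leucine, and it reaches the cell surface only as a dimer with the glycoprotein Slc3a2 (CD98 heavy chain). Slc7a1 (CAT1) carries arginine and lysine, Slc1a5 (ASCT2) and Slc1a4 (ASCT1) are sodium-dependent exchangers of small neutral amino acids that include glutamine for Slc1a5 and serine for Slc1a4, Slc38a1 and Slc38a2 (SNAT1 and SNAT2) carry glutamine and alanine with sodium, and Slc6a9 (GlyT1) takes up glycine. Several of these genes are known targets of the transcription factor ATF4, which is translated when amino acids are short, and Myc is known to act on Slc7a5 and Slc1a5. Elp3 is the catalytic subunit of Elongator, which modifies the wobble uridine of a set of tRNAs, and the study asked how ribosomes were distributed over mRNAs when Elp3 was depleted.

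In total RNA, Slc1a5 was the only one of the 8 whose level in every shELP3 library was above every control library. It was at 3.55 times the control in letter A, 1.78 times in B and 1.81 times in C. The letter A value rests on control RNA A, which for this gene was 0.416 of the mean of B and C. Slc1a5 was called with the letter as a block (12.2% of all genes were) and from letters B and C alone (19.4%). The edgeR fit of the 6 libraries without a block did not call it. In footprints, where letters were not taken as pairs, every shELP3 library was above every control for Slc1a5. For Slc7a5 and Slc7a1 every shELP3 footprint library was below every control. Such lack of overlap was seen with shELP3 higher in 10.2% of all genes in RNA and 15.4% in footprints, and with shELP3 lower in 15.3% in footprints, beside 1, 1 and 2 of the 8, so it does not set them apart from other genes. None of the 8 was called in footprints by the edgeR fit of the 6 libraries, and the calls depended on the fit and on the control A library. The other 5 transporters were not called by any fit run, and the fitted change of the 2 system A carriers, Slc38a1 and Slc38a2, in footprints was -0.02 on the log2 scale for each.

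Libraries held between 7914369 and 16527864 counts in total RNA and between 7619269 and 10998570 in footprints. The control RNA library A stood apart, with a Spearman correlation across genes of 0.876 with B and 0.866 with C, against 0.992 between B and C, and shELP3 RNA A did so to a lesser degree (0.926 and 0.934, against 0.985). Elp3 itself went from 78.7 ± 13.3 to 37.3 ± 3.42 CPM (counts scaled to a common library size by TMM; mean ± SD, n = 3) in RNA, with a log2 fold change of -1.08 and an edgeR adjusted p of 0.083, or 0.00098 with the letter block. In footprints Elp3 fell from 105 ± 11.4 to 55.0 ± 5.86 CPM (-0.93 on the log2 scale, edgeR adjusted p = 0.0249), a call that ended when any one of the libraries other than control A was left out (adjusted p = 0.0694 to 0.136). Of 10 melanocyte markers 9 could be tested, and their summed level was 11734 to 16095 CPM in control RNA and 9086 to 10524 in shELP3 RNA, and 23281 to 45167 and 18363 to 27418 in footprints. Under TMM all 9 had fold changes below 0 in both fractions, and the melanosome gene Pmel was called lower in both (-1.59 and -1.81 on the log2 scale, edgeR adjusted p = 0.0396 and 0.0364) and Pax3 in footprints (-0.72, adjusted p = 0.0345). Fibroblast markers, 7 genes with Dcn at 0 in every group, summed to 24.2 to 58.7 CPM in control RNA and 46.4 to 94.7 in shELP3 RNA, and to 64.7 to 81.5 and 83.4 to 111 in footprints, where 1 of the 3 that could be tested, Col1a1, was called higher (1.48, edgeR adjusted p = 0.0203). Leaving out any one shELP3 library ended these marker calls and every other call of the edgeR fits without a block, in both fractions. The 11 macrophage and leukocyte markers summed to at most 4.29 CPM and the 6 epithelial markers to at most 1.38 in any library. The part of the melanocyte and fibroblast markers in the results below was not tested, and in such bulk samples fewer cells with a transcript and less of it per cell cannot be told apart.

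The 8 genes lie on 7 chromosomes, and only Slc38a1 (chr15:96571418-96643438) and Slc38a2 (chr15:96687392-96699728) are on the same one, close together. The others are at chr8:121881146-121907686 (Slc7a5), chr19:8706882-8723369 (Slc3a2), chr5:148327410-148399904 (Slc7a1), chr7:16781334-16798274 (Slc1a5), chr11:20302180-20332713 (Slc1a4) and chr4:117835258-117869305 (Slc6a9), all as gene spans in RefSeq on GRCm38.p6. RefSeq promoter windows, 250 bases before to 50 after a start, were at hand for 5 of the 8 genes (8 windows). No window was at hand for Slc7a5, Slc1a5 or Slc38a1, so their promoters were not searched. They were searched on both strands for the composite element that ATF4 binds with C/EBP factors, TGATGNAAN, and for the E-box of Myc, CACGTG. The composite element was in 1 of the 8 windows, against 3.954% of all 32851 windows, and the E-box in 0 of the 8, against 7.15%. The 1 match was in Slc1a4 and is shown because that gene is a described ATF4 target. The match lies across the annotated start, from 5 bases before it, at chr11:20332710-20332718. The stretch shown is chr11:20332702-20332726, written on the minus strand on which the gene lies, with the match in capitals. The match reads as the element on the opposite strand.
Slc1a4 start site: cctcctgcGTTGCATCAtctccagc
A match is a description of the letters and not a binding site.

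**Figure D1:**
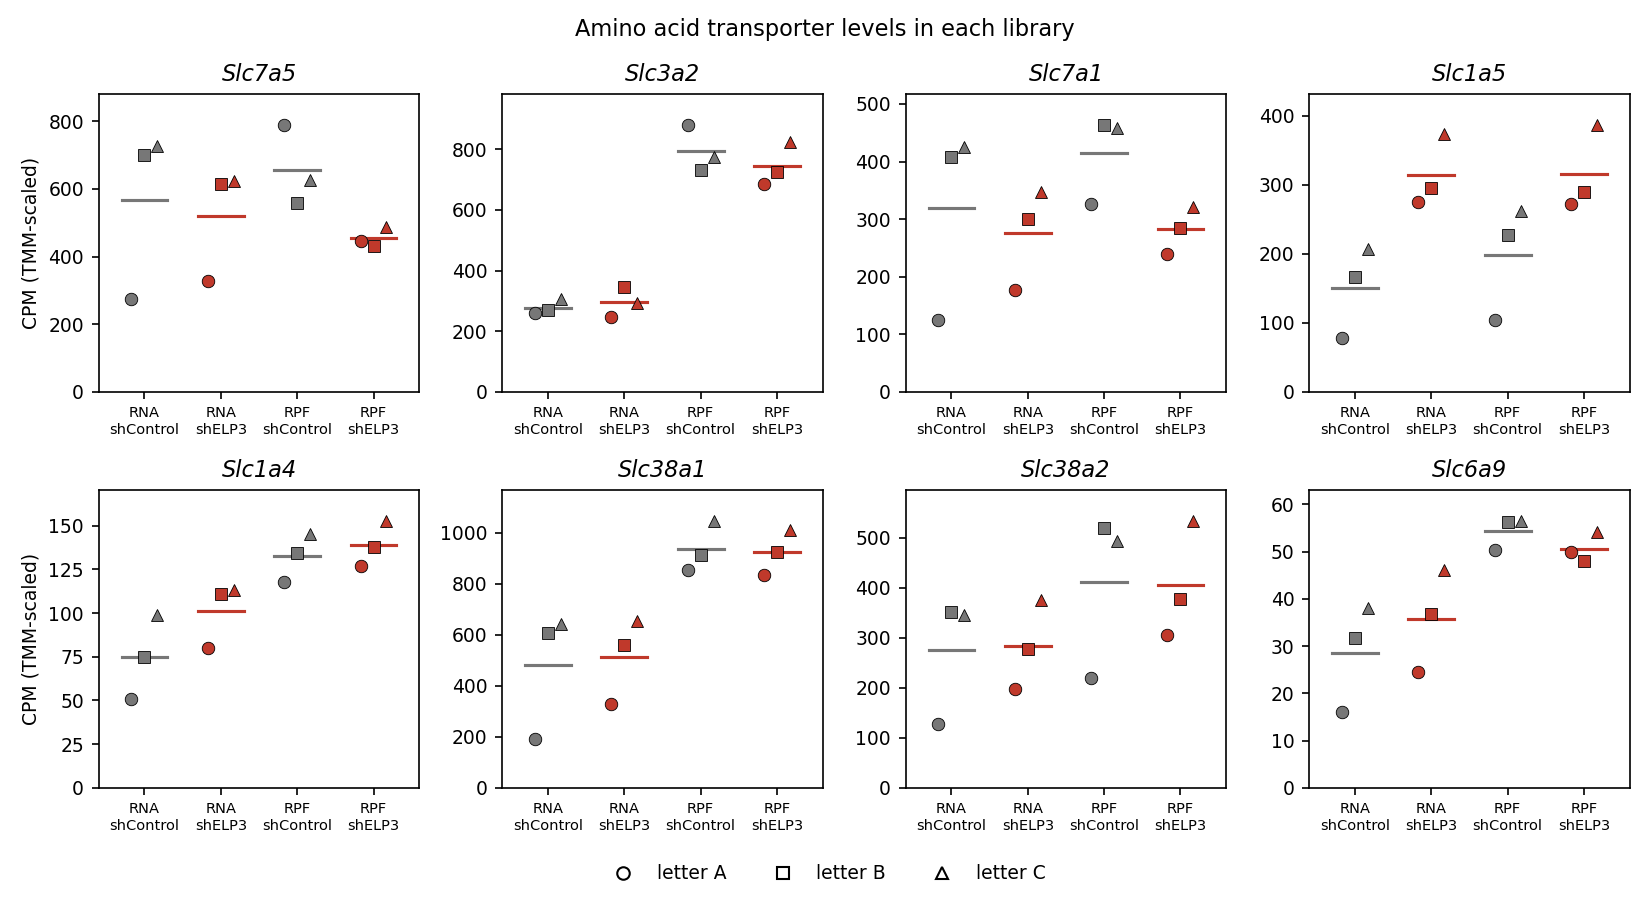
Level of each transporter in CPM scaled by TMM (vertical axis, starting at 0, its own scale per gene) in the 4 groups; each point is a library, its shape the letter, and each bar the mean of 3. Slc1a5 has no overlap between shControl and shELP3 in either fraction, Slc7a5 and Slc7a1 have none in footprints, and the letter A control is the lowest control RNA library of all 8 genes.

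Slc7a5, the leucine-carrying light chain, had 275 CPM in control RNA A, 700 in B and 727 in C, and 327, 614 and 623 CPM in shELP3 A, B and C. The groups overlapped fully, and within letters the log2 difference was 0.25 in A, -0.19 in B and -0.22 in C. The RNA log2 fold change was -0.12 (SE 0.44, edgeR adjusted p = 0.961). In footprints the gene had 788, 557 and 625 CPM in control A, B and C and 445, 431 and 489 in shELP3. Every shELP3 footprint library was below every control library, and the mean went from 657 ± 119 to 455 ± 29.9 CPM (SD, n = 3). The footprint log2 fold change was -0.53 (SE 0.16, 95% interval -0.89 to -0.16), with an edgeR p of 0.0102 and an adjusted p of 0.0996, so that it was not called. DESeq2 called it at the same size (-0.53, adjusted p = 0.0387), and edgeR called it without control A (-0.39, adjusted p = 0.0274). Control A was the highest footprint library of this gene and the lowest RNA library.

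Slc3a2, the heavy chain that carries Slc7a5 to the surface, did not share this pattern. Its RNA was 259, 269 and 305 CPM in control A, B and C and 245, 345 and 294 CPM in shELP3, with no order between the groups. Its footprints were 879, 732 and 776 CPM in control and 684, 724 and 826 CPM in shELP3, again with overlap. The log2 fold changes were 0.09 in RNA (SE 0.23, 95% interval -0.45 to 0.62) and -0.10 in footprints (SE 0.14, interval -0.41 to 0.22), and neither was called. The difference between the 2 subunits was not tested. Of the 8 genes Slc3a2 varied least between letters in control RNA, with A at 0.902 of the mean of B and C, where the other 7 were at 0.299 to 0.584.

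Slc7a1, the arginine and lysine carrier, had 124, 407 and 425 CPM in control RNA A, B and C, and 177, 301 and 347 CPM in shELP3. Within letters the log2 differences were 0.51 in A, -0.44 in B and -0.29 in C, and the RNA log2 fold change was -0.21 (SE 0.49, edgeR adjusted p = 0.929). In footprints it had 326, 463 and 458 CPM in control A, B and C and 240, 285 and 321 CPM in shELP3. The highest shELP3 footprint library was thus just below the lowest control, and the differences within letters were -0.44, -0.70 and -0.51. The mean went from 416 ± 77.6 to 282 ± 40.7 CPM (SD, n = 3). The footprint log2 fold change was -0.56 (SE 0.18, interval -0.98 to -0.14), with an edgeR p of 0.0153 and an adjusted p of 0.119. It was called without control A (-0.72, adjusted p = 0.00308) and when letter A was set aside (-0.60, adjusted p = 0.00409), and not by DESeq2 (adjusted p = 0.062).

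Slc1a5, the glutamine exchanger, had 77.5, 166 and 206 CPM in control RNA A, B and C and 275, 295 and 373 CPM in shELP3. The lowest shELP3 library was above the highest control. The mean went from 150 ± 65.9 to 314 ± 51.8 CPM (SD, n = 3). The RNA log2 fold change was 1.07 (SE 0.37, interval 0.19 to 1.94), with an edgeR p of 0.023 and an adjusted p of 0.282. With the letter as a block Slc1a5 rose by 1.17 (SE 0.22, edgeR adjusted p = 0.0029), in a fit that called 12.2% of all genes. It was also called in each pair of letters fitted with the block, at 0.84 in B and C (adjusted p = 5.69e-05), 1.34 in A and C (0.00442) and 1.34 in A and B (0.0002). These pairs share libraries and were chosen after seeing the data, so the pair fits are not separate support. Without a block, edgeR called Slc1a5 from letters B and C alone (0.84, adjusted p = 0.00132), and DESeq2 did not call it from the 6 libraries (1.05, adjusted p = 0.131). Without control A the log2 fold change was 0.75 (edgeR adjusted p = 0.126). In footprints it had 105, 227 and 262 CPM in control A, B and C and 273, 290 and 386 CPM in shELP3, also with no overlap. The footprint log2 fold change was 0.68 (SE 0.32, interval -0.06 to 1.41, edgeR adjusted p = 0.251). It was 0.36 without control A (adjusted p = 0.116) and 0.47 from letters B and C alone, where it was called (adjusted p = 0.0439).

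Slc1a4, the paralog that carries serine and alanine and holds the start-site match printed above, differed less. Its RNA was 50.7, 75.0 and 98.7 CPM in control A, B and C and 79.9, 111 and 113 CPM in shELP3. The shELP3 library was higher in each letter (0.66, 0.56 and 0.20 on the log2 scale), but the groups overlapped. The RNA log2 fold change was 0.44 (SE 0.30, edgeR adjusted p = 0.655) and 0.47 with the letter block (adjusted p = 0.101). Footprints were 118, 134 and 145.5 CPM in control and 127, 138 and 152 CPM in shELP3, with differences within letters of 0.11, 0.04 and 0.07. The footprint log2 fold change was 0.07 (SE 0.14, interval -0.25 to 0.40), not called.

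The system A pair, Slc38a1 and Slc38a2, differed more between letters than between shRNAs. Slc38a1 had 191, 608 and 644 CPM in control RNA A, B and C and 328, 561 and 655 CPM in shELP3. Its footprints were 855, 914 and 1045 CPM in control and 834, 927 and 1013 CPM in shELP3, nearly the same values letter by letter. The log2 fold changes were 0.10 in RNA (SE 0.49) and -0.02 in footprints (SE 0.14, interval -0.34 to 0.30). Slc38a2, whose own mRNA is known to be translated under amino acid shortage, had 128, 351 and 345 CPM in control RNA and 198, 277 and 376 CPM in shELP3. Its footprints were 220, 519 and 494 CPM in control and 305, 378 and 533 CPM in shELP3, so that letter A was the lowest of its group in both fractions. The log2 fold changes were 0.05 in RNA (SE 0.43) and -0.02 in footprints (SE 0.34, interval -0.80 to 0.76), and the footprint values of both genes turned slightly positive, to 0.05 and 0.04, with library totals in place of TMM.

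Slc6a9, the glycine transporter, had the fewest counts of the 8, from 214 to 619 per library. Its RNA was 15.95, 31.6 and 38.1 CPM in control A, B and C and 24.4, 36.7 and 46.1 CPM in shELP3, higher in shELP3 within each letter (0.61, 0.22 and 0.27 on the log2 scale). The groups overlapped, and the RNA log2 fold change was 0.32 (SE 0.38, edgeR adjusted p = 0.834). Footprints were 50.3, 56.2 and 56.4 CPM in control and 49.8, 48.1 and 54.1 CPM in shELP3, with differences within letters of -0.013, -0.23 and -0.061. The groups overlapped, and the footprint log2 fold change was -0.10 (SE 0.13, interval -0.40 to 0.20), not called.

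**Figure D2:**
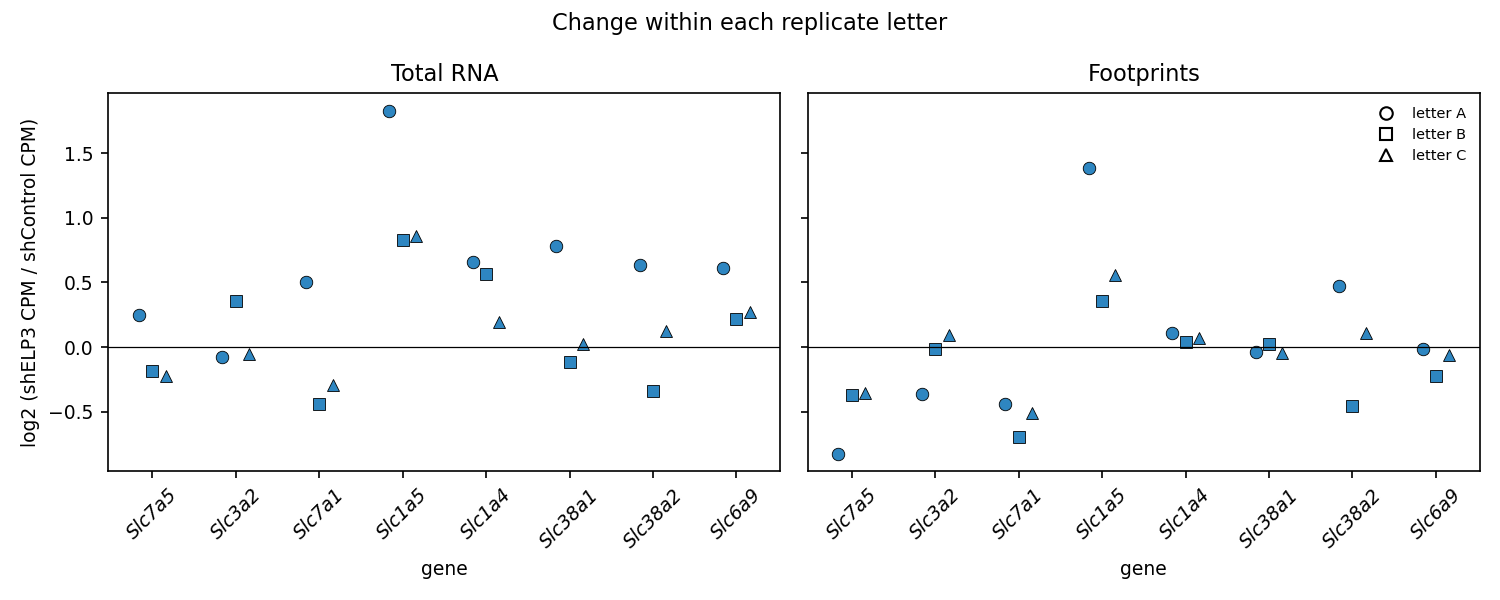
Log2 ratio of shELP3 to shControl CPM (vertical axis) within each letter for the 8 transporters, in total RNA (left) and footprints (right). Each point is 1 pair of libraries and the line marks no change. Letters were not taken as pairs in footprints, so points there only match libraries by letter. Slc1a5 and, less far, Slc1a4 lie above 0 in all 3 letters of both fractions, Slc7a5, Slc7a1 and, close to 0, Slc6a9 lie below 0 in all 3 letters of footprints but not of RNA, and letter A is the highest RNA point of 7 genes, Slc3a2 being the exception.

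The calls among the 8 transporters were set beside those among all genes. Where few genes are called, 8 are too few for their share to be compared with the background. In total RNA edgeR called 0 of the 8, where 1.14% of 12274 genes were called (140, with 27 higher and 113 lower, and 1519 genes at an unadjusted p under 0.05). At that unadjusted level 1 of the 8, Slc1a5, passed, and DESeq2 called 0 of the 8. With the letter block 1 of 8 was called, which is 12.5% against 12.2% of all genes, a share near the background. With letters B and C only the 1 call, Slc1a5, stands beside 19.4% of all genes. The median RNA log2 fold change of the 8 was 0.09, with 6 above 0, and that of all genes was -0.02. Library totals in place of TMM moved the median of all genes in RNA by 0.12, and the same 6 and 2 counts were found above and below 0 under that scaling. Of the 8 genes 1 had RNA groups that did not overlap with shELP3 higher, as had 10.2% of genes.

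In footprints edgeR called 0 of the 8, where 4.83% of 11343 genes were called (548, with 201 higher and 347 lower, or 258 higher and 256 lower with library totals only). At an unadjusted p under 0.05, 2 of the 8 passed, Slc7a5 and Slc7a1, as did 2622 genes. DESeq2 called 1 of the 8, Slc7a5, beside 11.5% of all genes. Without control A edgeR called 2, Slc7a5 and Slc7a1, beside 24.8% of all genes, and from letters B and C alone it called 2, Slc7a1 and Slc1a5, beside 21.7%. Leaving out any shELP3 library left 0 genes of the whole table called in footprints. The median footprint log2 fold change of the 8 was -0.06, with 2 above 0, and with library totals only 4 were above 0. Groups did not overlap in 1 of 8 with shELP3 higher (15.4% of genes) and in 2 of 8 with shELP3 lower (15.3% of genes).

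**Figure D3:**
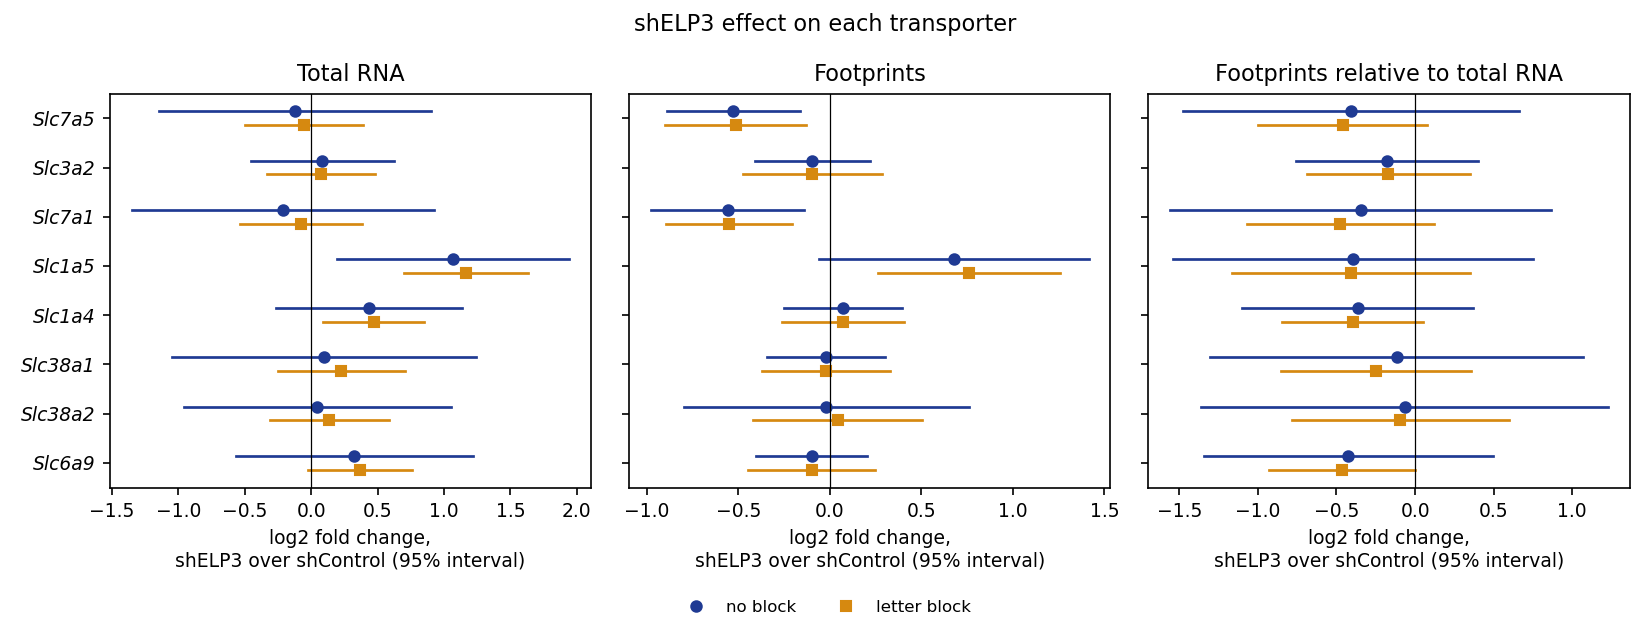
Log2 fold change of shELP3 over shControl (horizontal axis) with its 95% interval from edgeR for each transporter in total RNA, footprints, and footprints relative to total RNA, without a block (circles) and with the letter as a block (squares); the horizontal scale differs between panels. In RNA the Slc1a5 interval lies above 0 in both fits (0.19 to 1.94 without the block), and in the right panel all 8 values lie below 0 with intervals that cross it, except that of Slc6a9 with the block, which ends just short of 0.

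Footprints relative to total RNA were compared to ask whether ribosome occupancy per transcript differed. No gene of 11238 was called by edgeR in the test of the interaction of fraction and shRNA (0% of genes, with 62 at an unadjusted p under 0.05), nor by DESeq2 (81 at that level) or limma voom with quality weights (489). All 8 transporters had fitted values below 0, from -0.42 for Slc6a9 (SE 0.42) and -0.41 for Slc7a5 (SE 0.49) to -0.07 for Slc38a2, each with an edgeR adjusted p of 1.00. Their median was -0.36, beside 0.02 for all genes, of which 46.1% were below 0. Without control A the value was 0.07 for Slc7a5 and 0.19 for Slc38a1, and the other 6 remained below 0. The ratio of footprint CPM to RNA CPM was lower in shELP3 within each of the 3 letters for 6 of the 8, all but Slc3a2 and Slc38a1, where 14.3% of 11182 genes with a ratio in every culture were lower in each letter. This share was not tested, since the 8 genes share the same 12 libraries. Fitted values below 0 were also common in the related carriers listed below. Of the other plasma membrane carriers 1 of 10 was above 0 (median -0.18), and of the lysosomal carriers 1 of 7 (median -0.21).

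Slc1a5 had the tightest ratio of the 8. Its log2 ratio was 0.43, 0.45 and 0.34 in control A, B and C and -0.01, -0.03 and 0.05 in shELP3, and it was the only one of the 8 whose ratio groups did not overlap, as was the case in the lower direction for 3.46% of genes. In rank among genes of the same culture, it went from the percentile range 68.7 to 74.4 in control to 54.6 to 57.6 in shELP3. The fitted change was -0.39 (SE 0.53, interval -1.54 to 0.75), and with the culture as a block -0.41 (edgeR adjusted p = 1.00). Slc3a2 had ratios between percentiles 91.5 and 97.3 in every culture of both shRNAs, more footprint counts per RNA count than most genes. Such ranks take no account of coding length or of the counted feature, so they do not compare ribosome occupancy between genes. Slc7a5 ran from percentile 94.6 in control A to 42.9 and 47.2 in control B and C, and from 74.4 to 36.4 and 42.5 in shELP3. Slc38a1 and Slc7a1 also had their highest ratio in control A, at percentiles 98.0 and 93.4. The spread between letters in these 3 genes was larger than the difference between the shRNAs.

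**Figure D4:**
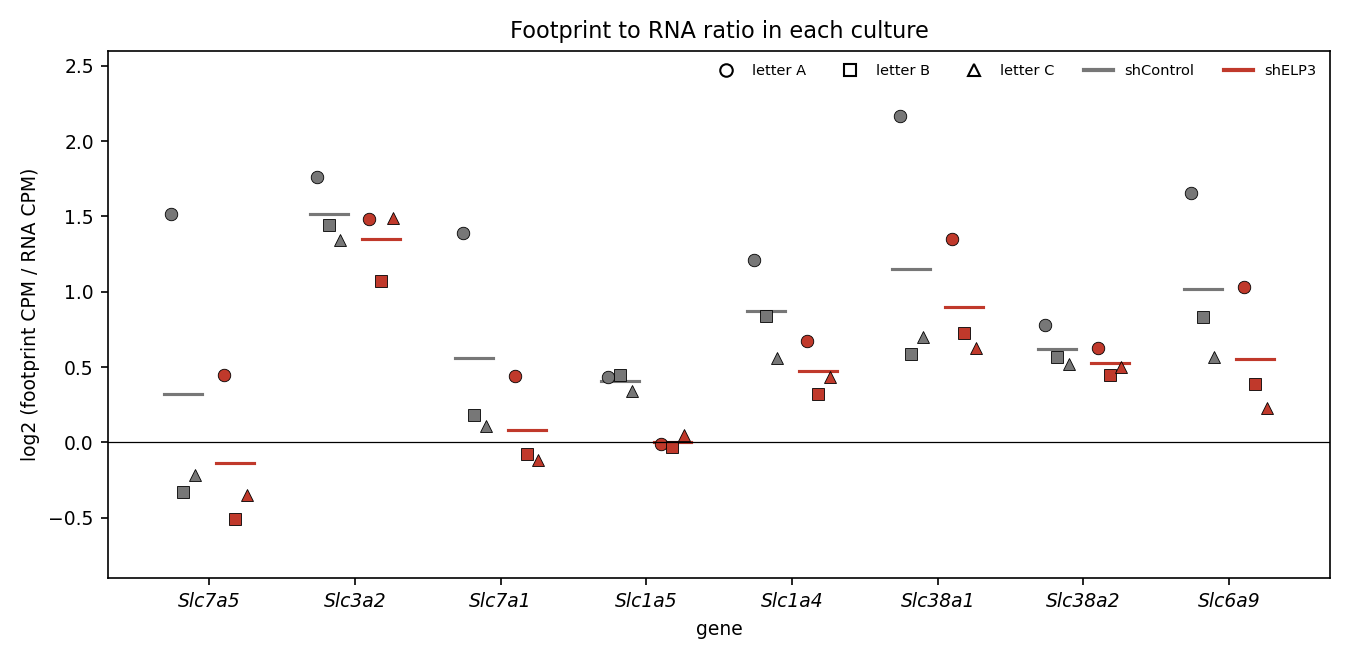
Log2 ratio of footprint CPM to RNA CPM (vertical axis) of the 8 transporters in each of the 6 cultures; points are cultures shaped by letter, bars are means of 3, and the line marks equal CPM. Slc1a5 control cultures lie between 0.34 and 0.45 and its shELP3 cultures between -0.03 and 0.05, while control A is far above control B and C for Slc7a5, Slc7a1, Slc38a1 and Slc6a9.

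Other carriers and the pathways around them were read from lists. Of 27 other amino acid carriers, 11 could be tested in RNA and 10 in footprints, and edgeR called 0 in RNA and 1 lower in footprints (10%, beside 4.83% of all genes). The 1 was Slc6a17, known mainly from synaptic vesicles, which fell in footprints from 22.2 ± 3.57 CPM to 11.002 ± 2.22 (-1.01 on the log2 scale, SE 0.22, edgeR adjusted p = 0.0441), a call that ended when any library but control A was left out (adjusted p = 0.0931 to 0.173) and with library totals in place of TMM (0.0518). Slc7a11, the cystine and glutamate exchanger that also pairs with Slc3a2, went from 60.6 ± 16.5 to 135 ± 28.9 CPM in RNA (1.15 on the log2 scale, edgeR adjusted p = 0.14) and rose by 1.16 with the letter block (adjusted p = 0.00147). Its footprints went from 56.7 to 99.7 CPM (0.81, edgeR adjusted p = 0.0597), and DESeq2 called both fractions (adjusted p = 0.0132 in RNA and 0.00611 in footprints). The taurine carrier Slc6a6 had 794 ± 289 CPM in control RNA and 598 ± 172 in shELP3 RNA. Its footprints went from 707 ± 92.5 to 438 ± 95.7 CPM (-0.69 on the log2 scale, interval -1.12 to -0.26, edgeR adjusted p = 0.0779), and neither was called. Of the 373 genes of the solute carrier family in the table, 208 were tested in RNA with 0 called, or 20 higher and 4 lower with the letter block, 11.5% of the family beside 12.2% of all genes. In footprints 192 were tested, and Slc22a21 (2.03) and Slc4a11 (1.58) were called higher and Slc6a17 and Slc4a8 (-0.54) lower, which is 2.08% of the family beside 4.83% of all genes. The family's median log2 fold change was 0.12 in RNA, 0.01 in footprints and -0.10 in the ratio, where 57 of 192 values were above 0, so values below 0 were common beyond the 8.

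The 7 amino acid carriers of the lysosome membrane were all tested and none was called in any of the 3 comparisons, nor in RNA when letters were blocked. Their median log2 fold change was 0.37 in RNA and 0.18 in footprints, with 7 of 7 values above 0 in both under TMM, RLE and library-total scaling. In footprints some of these lay close to 0, down to 0.02 for Slc38a7 (SE 0.19). In the whole solute carrier family 132 of 208 values were above 0 in RNA and 98 of 192 in footprints. Slc15a4, which carries histidine and small peptides, had 116 ± 34.3 CPM in control RNA and 150 ± 26.3 in shELP3. Slc38a7, a glutamine carrier, had 41.6 ± 23.5 and 61.4 ± 15.1 CPM. Among genes that report amino acids to the kinase mTORC1, 23 of 24 were in the table and tested, with 0 called in RNA or footprints and 2 higher with the RNA letter block, 8.7% of the list and fewer than the 12.2% of all genes. These were Flcn, a GTPase activator for Rag proteins (1.11, edgeR adjusted p = 0.00211), and Wdr24, a GATOR2 subunit (0.77, adjusted p = 0.0139). The Flcn call held in each pair of letters, and the Wdr24 call did not hold in letters A and B (adjusted p = 0.0608). These pairs share libraries and were chosen after seeing the data.

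Of 18 genes of the ATF4 programme outside transporters, 16 were tested, with 0 called in RNA, 3 higher with the letter block (18.8%, beside 12.2% of all genes) and 1 higher in footprints (6.25%, beside 4.83%). Chac1, which degrades glutathione, rose in footprints from 17.1 ± 4.12 to 40.9 ± 5.51 CPM, by 1.25 on the log2 scale (SE 0.21, edgeR adjusted p = 0.0254), and in blocked RNA by 1.00 (adjusted p = 0.00367). The footprint call ended without control B (adjusted p = 0.0931) and without any one shELP3 library (0.0904 to 0.141). Trib3 (0.75, adjusted p = 0.0259) and Nupr1 (0.76, adjusted p = 0.0449) were the other 2 in blocked RNA, and neither was called in letters A and C alone (0.282 and 0.407). Atf4 had log2 fold changes of -0.06 in RNA and 0.21 in footprints, not called, and the list's medians were -0.04 and 0.08. Of 9 transcription factors tied to transporter genes 8 were tested, and 1, Myc, was called lower with the letter block in RNA and in footprints (12.5%, beside 12.2% and 4.83% of all genes). It fell in footprints from 43.2 ± 14.6 to 11.9 ± 1.79 CPM, a change of -1.86 on the log2 scale (SE 0.26, edgeR adjusted p = 0.0197), and in RNA with the letter block the change was -1.97 (adjusted p = 5.13e-05). The Myc footprint call ended without control C (adjusted p = 0.0581) and without any one shELP3 library (0.0999 to 0.124).

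The genes whose pattern over the 12 libraries was most like that of Slc7a5 were Mtss1 and Abhd2. After centring on the mean of each fraction, their log2 CPM differed from that of Slc7a5 by a root mean square of 0.11 and 0.12, where the median over 8909 genes was 0.56. The 12 libraries share letters and depth, so the likeness is a description of them.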

How the data were processed

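The members and gene lists were chosen with earlier results of these data known. The authors deposited unnormalized counts, whole numbers of reads for each gene symbol, for all 12 libraries, and the labels' protocols name Illumina's TruSeq Ribo Profile (Mammalian) kit. The submitters' processing notes list TopHat2 2.1.1, Bowtie, HTSeq and bcl2fastq, with the build mm10. Not given in the sources used here were the annotation, the strand setting and the counted feature (coding sequence or exons), so antisense or overlapping genes may be mixed and a footprint count may include fragments outside the coding sequence.

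Groups came from the labels. Genes were kept by filterByExpr (minimum count 10), scaled by TMM within a fraction and tested by the quasi-likelihood F test of edgeR 4.0.16 in R 4.3.3. A gene was called at an adjusted p (Benjamini-Hochberg, across every gene in the fit) under 0.05. Footprints relative to total RNA were tested through the fraction by shRNA interaction, fitted to all 12 libraries. The SE is the fold change divided by the root of F, and intervals are 95%. Levels of different genes were not compared as results, since the planned footprints per coding kilobase need coding lengths that were not used here. CPM without regard to length only picked which uncalled genes are named. Alternatives were DESeq2 1.42.0, limma 3.58.1 voom for the ratio, other scalings and filters, blocks and left-out libraries. Only the edgeR fits without a block were tested on simulated data, which held no letter effect. The fits with a block, with letters left out, DESeq2 and voom were not tested in this way.

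All 8 transporters and Elp3 are named. From each list up to 4 called members are named, or with none called up to 2 with the highest CPM. The genes most like Slc7a5 were sought among those whose log2 CPM averaged 3 or more in both fractions, with a pseudocount of 1. Deviations from group means of same-letter libraries of both shRNAs correlated across genes at 0.828 (A), 0.474 (B) and 0.621 (C) in RNA and 0.759, 0.454 and 0.473 in the ratio, so letters were taken as pairs there. B and C correlated as well with each other (0.615 and 0.727 in RNA, 0.570 and 0.495 in the ratio), which sets A apart. These values do not tell pairs by letter from a split of A against B and C. In footprints the values were 0.353, -0.112 and 0.23, and letters were not taken as pairs. Differences within letters in footprints are thus only descriptions of libraries that share a letter. No pair of libraries agreed within sampling noise (chi-square per degree of freedom of at least 8.25).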

Additional observations from a re-analysis of the deposited data

How the results depend on the processing

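Over 24 results (8 transporters in 3 comparisons) and 416 alternative values, 362 kept their direction and their side of the threshold, 41 changed sign and 13 became called. None of the 24 results was called by the edgeR fits of all libraries without a block, so any sign change had to fall on an uncalled result. The values of Slc1a5 and Slc6a9 never changed sign. The number of genes called in RNA was 652 with DESeq2, 73 with library totals only, 1499 with the replicate block, 2377 with letters B and C only, and with the block on pairs of letters, chosen after seeing the data, 2046 (B and C), 822 (A and C) and 1099 (A and B). In those block and B and C fits 1 transporter was called. In footprints it was 1308 with DESeq2 (1 transporter), 2477 with B and C only (2), 2780 with the block on B and C (3: Slc7a5, Slc7a1 and Slc1a5) and 334 with the block on A and C (0). For the ratio it was 2 with B and C only and 16 when the culture was added as a block. Leaving out a library gave 0 to 540 genes in RNA and 0 to 2856 in footprints, where 0 to 2 transporters were called. The footprint fit with the replicate block called 666 genes and 0 transporters (Slc1a5 0.76, adjusted p = 0.0844), and letters were not taken as pairs there.

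Sign changes in RNA were those of Slc38a1 (-0.043 with B and C only, -0.047 with the block) and Slc38a2 (-0.092 and -0.11), of Slc7a5 (0.0104), Slc3a2 (-0.0697) and Slc7a1 (0.10) with the block on A and C, and of Slc7a5 (0.0446) and Slc7a1 (0.0481) with the block on A and B. In footprints they were Slc38a1 and Slc38a2 with library totals (0.0482, 0.0359) and a minimum count of 50 (0.0051, 0.0049), Slc38a2 with the block (0.0419, 0.30 on A and C, 0.0084 on A and B) and Slc3a2 with B and C only (0.0378, and 0.0354 with the block). In the ratio Slc38a1 was 0.0273 with B and C only and 0.033 with the culture block. Leaving out each library gave ranges in RNA of -0.45 to 0.12 (Slc7a5), -0.0481 to 0.20 (Slc3a2), -0.60 to 0.0506 (Slc7a1), -0.29 to 0.37 (Slc38a1) and -0.30 to 0.27 (Slc38a2). In footprints the ranges were -0.0196 to 0.14 (Slc1a4), -0.10 to 0.0631 (Slc38a1) and -0.33 to 0.18 (Slc38a2), and in the ratio -0.70 to 0.0659 (Slc7a5) and -0.35 to 0.19 (Slc38a1). The cause of these changes was not tested.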
